A study of Mus musculus with 16 samples.

Results

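Loss of Wnt4 was compared across every gonad of the study at once: all 8 arrays of Wnt4 knock-out gonads against all 8 arrays of wild-type gonads, 16 of the 16 arrays of the series, with gonad type and stage held as blocks. The arrays fall into 4 strata, ovary and testis at embryonic day 12.5 (E12.5) and at E14.5, each with 2 knock-out and 2 wild-type samples of embryonic mouse gonad. The labels give only the genotypes wild type and Wnt4 knock-out. The strain, the allele and the deleted part of the gene were not stated in the sources used. Male samples have an ovary in their titles but a testis as their source, and the source was followed. The labels call the samples of a group biological replicates and leave unsaid whether each came from 1 embryo or several. The p-values then reflect only how far these arrays spread. RNA came from whole dissected gonads, and in such bulk samples fewer cells of a type and less RNA per cell cannot be told apart.

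WNT4 is a secreted, lipid-modified signalling protein. WNT ligands bind Frizzled receptors with LRP co-receptors, which in the canonical branch stabilises beta-catenin and lets it act with LEF and TCF proteins on target genes. Several of those targets, among them Notum, Axin2 and Apcdd1, encode inhibitors of the same pathway, so their level is commonly read as a feedback readout. In the gonad WNT4 is best known for its part in ovarian differentiation with R-spondin 1, and Wnt4 is also expressed in the early gonad and the mesonephros of both sexes. The comparison therefore asks which genes change without Wnt4 on the mean over both gonad types, with the change in each type given beside it.

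Values are deposited probe-set intensities on a linear scale from MAS5, with array means between 272 and 288. Of 45101 probe sets, 34945 carry 1 gene symbol and were tested, standing for 18193 genes, and the number of arrays limits the precision. All changes are differences of log2(intensity + 4), knock-out minus wild type, on a scale that understates changes of dim genes. Adjusted p-values come from limma with Benjamini-Hochberg adjustment over all 34945 probe sets, at a threshold of 0.05. Array quality was uneven and moved in part with genotype. The 3'/5' signal ratio, a sign of RNA quality, was above 1.7 in 1 wild-type and 1 knock-out array of ovary E12.5 (1.76 and 2.27) and in 1 knock-out array of testis E12.5 (1.76), and between 1.06 and 1.36 in the other 13. Transcripts of the opposite sex made up 16.4% to 22.7% in 5 arrays, 3 wild-type and 2 knock-out, and at most 6.74% in the other 11. In testis E12.5 the 2 wild-type arrays were close to identical, with an SD of their log2 difference of 0.156 against 0.4 to 0.882 in the other 7 groups.

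Wnt4 transcript itself was lower in the knock-out arrays of all 4 strata, by 2.1-fold in the pooled comparison (log2 change -1.07, SE 0.20, adjusted p = 0.0352). In ovary its main probe set read 844 and 1822 versus 839 and 520.2 at E12.5 (wild type versus knock-out) and 1138 and 1150.5 versus 351 and 302 at E14.5. Testis arrays read 502 and 473 versus 413 and 231 at E12.5 and 753 and 512 versus 277 and 371 at E14.5. On the main probe set knock-out and wild type did not overlap within any stratum. At ovary E12.5 they were separated only by 844 against 839, and no knock-out array lost the signal. A second Wnt4 probe set had -1.19 with an adjusted p of 0.0581, just outside the threshold. On that probe set the genotypes overlapped at ovary E12.5, at 392 and 759 versus 441 and 193. Where the deletion lies relative to either probe set was not stated in the sources used. Residual signal therefore does not measure the loss of function. The Wnt4 call held without 5 of the 16 arrays in turn and was lost without each of the other 11, with log2 changes between -1.19 and -0.99.

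Over all gonads, 73 probe sets passed the test, 0.209% of those tested: 27 were higher without Wnt4 (0.0773%) and 46 were lower (0.132%). At an unadjusted p under 0.05 stood 2760 probe sets, 7.9%. Counted by the brightest probe set of each gene, 55 of 18193 genes passed (0.302%), 21 higher (0.115%) and 34 lower (0.187%). All 73 had the same sign in ovary and testis and in each of the 4 strata, which the additive model favours, since spread between strata counts as error. The arrays of the 2 genotypes did not overlap in any stratum for 53 of the 73, 17 higher and 36 lower. The 73 were chosen on these same arrays, which favours separation too, so this count is a description. Among all probe sets tested, 208 were separated the same way in every stratum (0.595%).

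The count rested on all arrays together. It was 24 when the near-identical wild-type testis E12.5 arrays were averaged into 1, 18 (3 higher and 15 lower) without the 3 arrays of highest 3'/5' ratio, and 43 without the 5 arrays of most opposite-sex RNA. Leaving out any whole ovary stratum or testis E12.5 left 0 calls in limma, with 1733 to 3030 probe sets at an unadjusted p under 0.05, while 62 remained without testis E14.5. Single arrays moved the count as well. In ovary E12.5 it became 45 or 40 when wild-type replicate 1 or 2 was omitted and 31 or 28 when knock-out replicate 1 or 2 was. In ovary E14.5 the same 4 omissions gave 35, 45, 23 and 17. In testis E12.5 it was 29 or 22 after omission of wild-type replicate 1 or 2, and 40 after that of knock-out replicate 2. In testis E14.5, omission of wild-type replicate 1 gave 48 and of the knock-out arrays 33 (replicate 1) and 108 (replicate 2). The sign of all 73 probe sets held in each of these fits. As all 73 had 1 sign in all 4 strata, omission of a whole stratum could not change it. The other fits reuse the arrays on which the 73 were chosen, so the held signs are no separate support. Of the 55 genes, 12 passed without any 1 array: Notum, Osr2, Dach2, Rarb, Igfbp2 and Lemd1 among the fallen, and Htr1b, Fmo2, Lefty1, Tcf23, Cebpd and Nppc among the risen. The same 12 passed with the near-identical arrays averaged. Without the 3 arrays of highest 3'/5' ratio, Osr2, Dach2, Rarb and Lemd1 of these 12 still passed, and the rest had adjusted p between 0.0522 for Cebpd and 0.0739 for Tcf23. Without the 5 arrays of most opposite-sex RNA, Lefty1, Nppc and Lemd1 of these 12 did not pass, with log2 changes of 1.49, 0.62 and -0.30. Each called gene outside these 12 lost its call without at least 1 array. Of the 24 genes with the largest changes, 0 lost their call without knock-out testis E14.5 replicate 2 and 17 without wild-type testis E12.5 replicate 2, and no omission of 1 array moved any of their folds by over 1.5 times.

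**Figure D1:**
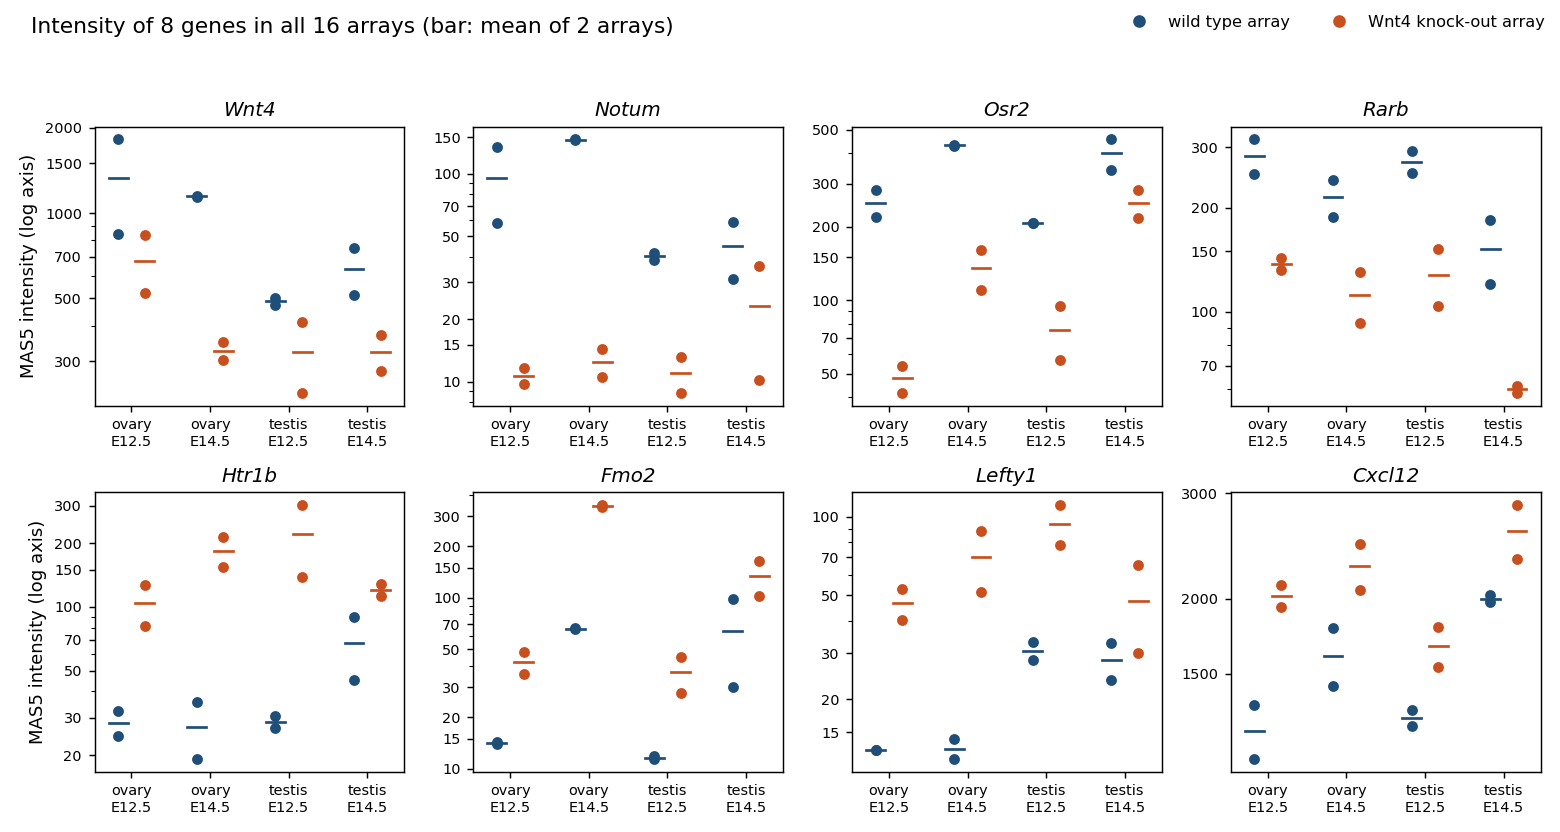
MAS5 intensity of 8 genes on log axes in all 16 arrays, in ovary and testis at E12.5 and E14.5; points are arrays (blue wild type, orange Wnt4 knock-out) and bars are means of 2 arrays. In the top row the knock-out arrays lie below wild type, with 1 overlap for Notum in testis E14.5, and in the bottom row they lie above it, with 1 overlap for Lefty1 in testis E14.5.

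The largest fall among the called genes belonged to Notum, a secreted carboxylesterase that inactivates WNT proteins by removing their lipid. In ovary it read 57.8 and 134 versus 11.6 and 9.75 at E12.5 and 147 and 146 versus 10.5 and 14.4 at E14.5 (wild type versus knock-out). In testis the readings were 41.7 and 38.6 versus 8.79 and 13.1 at E12.5 and 58.5 and 31.1 versus 10.2 and 36.2 at E14.5. Knock-out arrays read low in every stratum, and only knock-out testis E14.5 replicate 2, at 36.2, reached into the wild-type range of its stratum. The pooled fall was 4.3-fold (log2 change -2.10, SE 0.31, adjusted p = 0.0104), with log2 changes of -2.93 in ovary and -1.27 in testis. The difference between the gonad types had an unadjusted p of 0.003 and did not pass after adjustment.

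Apcdd1, a membrane protein that inhibits WNT signalling, was the other member of the feedback list that passed. Its arrays read 1738 and 2201 versus 746 and 696 in ovary E12.5 and 5568 and 3568 versus 1475 and 2519 in ovary E14.5. Testis gave 1280.3 and 1236 versus 680.1 and 707 at E12.5 and 1904 and 2516 versus 1094 and 2562 at E14.5, where replicate 2 of the knock-out was above both wild-type arrays (log2 change -0.97, SE 0.18, adjusted p = 0.0407). The brightest probe set can cross-hybridise by its design class. Of the 5 other Apcdd1 probe sets, 1 of that class also passed, at -0.97. Those without that class had -1.12 and -1.51 (adjusted p = 0.0611 and 0.0608) and, at a mean intensity of 4.56, -0.20. The remaining probe set of the class, at a mean of 92, had -0.20 (adjusted p = 0.849), -0.70 in ovary and 0.30 in testis. The Apcdd1 call was lost without each of 14 of the 16 arrays in turn, with log2 changes between -1.14 and -0.88.

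Of 18 measured genes of the WNT/beta-catenin feedback list, 2 passed the test, both lower, where 0.187% of all genes passed as lower. None passed as higher. The median log2 change of the 18 was -0.64 against 0.03 over all genes, -0.96 in ovary and -0.31 in testis. At an unadjusted p under 0.05, 12 of the 18 were lower and 0 higher, against 2.49% of all genes lower and 6.34% higher, and 11 were lower in all 4 strata, against 5.35% of all genes. Lgr5, a receptor of R-spondins, had -1.20 (adjusted p = 0.0748), with -1.97 in ovary and -0.43 in testis. Lef1, a transcription factor of the pathway, had -0.86 (adjusted p = 0.205). Msx1, a homeobox gene, had -1.18 (adjusted p = 0.115). In ovary Msx1 read 189 and 246 versus 36.3 and 30.7 at E12.5 and 113 and 109 versus 37.8 and 29.6 at E14.5. In testis both genotypes were near the low knock-out level, at 27.1 and 33.5 versus 29 and 23 at E12.5 and 24.6 and 27.6 versus 15.8 and 24.2 at E14.5. Axin2, the most used readout of the pathway, had -0.64 pooled (adjusted p = 0.514), with -1.16 in ovary and -0.12 in testis.

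Of 19 WNT ligands, Wnt4, the gene knocked out, was the single member to pass, where 0.187% of all genes passed as lower. The list median was 0.03. None of 35 WNT receptors, R-spondins and modulators passed, with 8 higher and 6 lower at an unadjusted p under 0.05, against 6.34% and 2.49% of all genes, and a median of -0.03. Rspo1, which encodes the R-spondin of ovarian differentiation, read 133 to 450.3 in the 8 wild-type arrays (median 264) and 176 to 663 in the 8 knock-out arrays (median 367), with a pooled change of 0.58 that missed the threshold (adjusted p = 0.254).

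**Figure D2:**
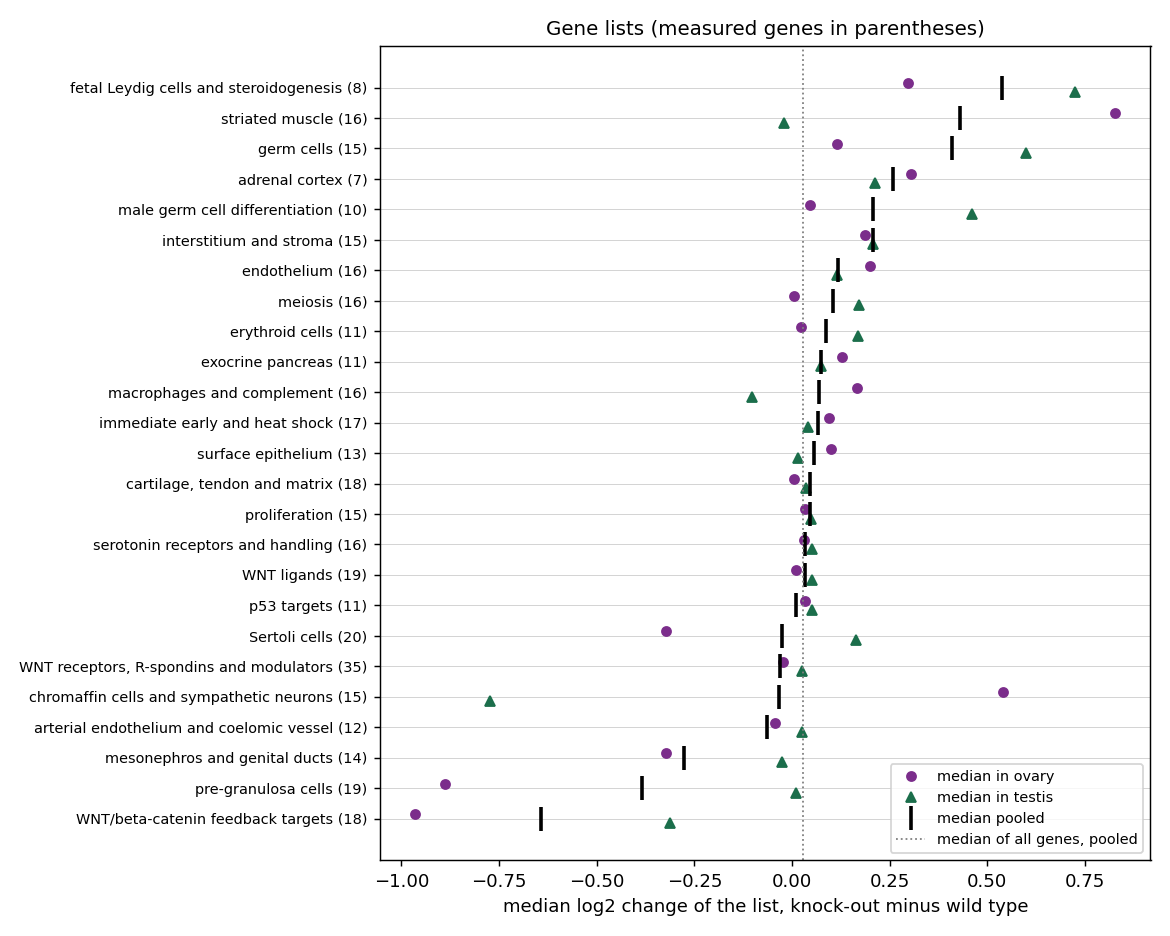
Median log2 change, knock-out minus wild type, of each of 25 gene lists, pooled (black bars), in ovary (purple) and in testis (green), with the median of all genes dotted at 0.03. The feedback targets of WNT stand lowest in the pooled median at -0.64, with both gonad types on the same side, whereas the pre-granulosa list has -0.89 in ovary and 0.01 in testis.

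Several transcription regulators fell. Osr2, a zinc-finger factor of the odd-skipped family, had arrays at 219 and 283 versus 53.9 and 41.6 in ovary E12.5 and 435 and 429.8 versus 110.0 and 161 in ovary E14.5. Testis arrays were at 207 and 207 versus 56.9 and 94.8 at E12.5 and at 457 and 343 versus 218 and 283 at E14.5. Wild type was above knock-out in each stratum, with the narrowest gap in testis E14.5 (2.86-fold pooled, log2 change -1.52, SE 0.20, adjusted p = 0.00749). A second Osr2 probe set, at a mean intensity of 3.45, had a change of 0.01.

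Both mammalian dachshund genes, which encode transcriptional cofactors, fell. Dach2 read 79.3 and 84.5 versus 22.7 and 22.9 in ovary E12.5 and 61.9 and 65.9 versus 8.70 and 12.1 in ovary E14.5. In testis Dach2 read 37 and 44.4 versus 18.7 and 11.2 at E12.5 and 27 and 22.1 versus 8.02 and 18.1 at E14.5 (log2 change -1.5, SE 0.19, adjusted p = 0.00749). A dimmer Dach2 probe set also passed, at -0.81. Dach1 read 241 and 251 versus 61.4 and 93.7 in ovary E12.5 and 259 and 177 versus 57.9 and 128 in ovary E14.5. In testis Dach1 read 140.2 and 119 versus 64 and 46.6 at E12.5 and 139.9 and 158 versus 47.5 and 129 at E14.5 (log2 change -1.24, SE 0.21, adjusted p = 0.0239). For both genes the genotypes were separated in every stratum. Dach1 was more scattered, with 1 knock-out array near wild type at E14.5 in each gonad type, and its call held without 7 of the 16 arrays in turn.

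Rarb, the beta receptor of retinoic acid, fell with similar changes in the 4 strata. Its log2 changes were -1.01 and -0.93 in ovary at E12.5 and E14.5 and -1.08 and -1.27 in testis. Rarb read 316 and 249.99 versus 132 and 144 in ovary E12.5 and 241 and 189 versus 93.1 and 131 in ovary E14.5. In testis Rarb read 253 and 291 versus 152 and 104 at E12.5 and 185 and 120.3 versus 61.2 and 58.2 at E14.5, with no overlap (2.1-fold, log2 change -1.07, SE 0.13, adjusted p = 0.00749). Retinoic acid is known to induce Rarb through a direct repeat of receptor sites in its own promoter, which is why that promoter is shown. Among 250-base windows before the start site, the motif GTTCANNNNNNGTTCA, on either strand, was in 22 of 32851 promoters (0.067%) and in 1 of 39 promoters of 24 genes that fell, that of Rarb. The motif was chosen because it is known from this promoter, so the match is no measure of enrichment among the fallen genes. The Rarb window lies at chr14:16575477-16575726 on the minus strand of GRCm38.p6 (RefSeq), with the matching letters, 52 to 37 bases before the start, in capitals.
Rarb promoter: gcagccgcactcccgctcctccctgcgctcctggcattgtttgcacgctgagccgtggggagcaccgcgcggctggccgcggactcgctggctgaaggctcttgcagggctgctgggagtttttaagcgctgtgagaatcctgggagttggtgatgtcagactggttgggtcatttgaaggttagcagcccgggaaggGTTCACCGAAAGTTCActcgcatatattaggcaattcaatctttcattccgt

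A LEF/TCF motif, CTTTGAT on either strand, was in 1053 of those promoters (3.21%). It was in 0 of the 39 promoters of genes that fell and in 1 of the 14 promoters of 12 genes that rose, that of Cxcl12. These are matches of letters in a short window, and distal sites were not searched. Promoter sequences were at hand for 24 of the 34 genes that fell and for 12 of the 21 that rose. Called genes without one, among them Notum and Osr2, were not searched.

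Esr1, Alx1, Hoxa9, Tbx3 and Runx1 fell as well. Esr1, which encodes estrogen receptor alpha, ranged from 76.2 to 624 in the 8 wild-type arrays (median 243) and 41.3 to 283 in the 8 knock-out arrays (median 123), with no overlap within a stratum (log2 change -0.99, SE 0.17, adjusted p = 0.0239). Alx1, a paired-type homeobox gene, ranged from 43.1 to 213 in the 8 wild-type arrays (median 135) and 19.3 to 95.9 in the 8 knock-out arrays (median 51.4) and was separated in all 4 strata too (log2 change -1.08, SE 0.20, adjusted p = 0.0363). Hoxa9, a posterior homeobox gene, fell by 0.74 (adjusted p = 0.0289) and Tbx3, a T-box repressor, by 0.76 (adjusted p = 0.0384). Runx1, a factor of pre-granulosa cells, was the last probe set inside the threshold, at -0.74 (adjusted p = 0.0499), from 26.9 and 21.2 to 12 and 11.8 in ovary E12.5 and from 61.8 and 56.1 to 19.1 and 18.1 in ovary E14.5. In testis Runx1 was dim in both genotypes, between 3.26 and 11.1.

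Igfbp2, Tmem132c and Lemd1 fell as well. Igfbp2, which binds insulin-like growth factors, was the brightest of the 12 genes that passed on omission of each single array. Igfbp2 read 2079 and 2305 versus 815 and 855 in ovary E12.5 and 2612 and 3663 versus 1920.5 and 2001 in ovary E14.5. In testis Igfbp2 read 1401 and 1327 versus 674 and 781 at E12.5 and 3047 and 2190.2 versus 1956 and 2049.6 at E14.5 (log2 change -0.83, SE 0.12, adjusted p = 0.0122). Its arrays were separated in each stratum, and the change was smaller at E14.5 in both gonad types. Tmem132c, a transmembrane protein, had a pooled fall of 2.91-fold (adjusted p = 0.0209), from 214 and 138 to 18.5 and 46.9 in ovary E14.5, where it was brightest. In testis E14.5 the knock-out arrays of Tmem132c were far apart, at 17.3 and 53.1 against 59.5 and 55.6 in wild type. Lemd1, a LEM-domain gene, had the smallest change among those 12, a log2 change of -0.30 at intensities between 3.33 and 7.94, among the dimmest of the called.

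Genes for cytoskeletal and surface proteins were among the falls. Sorbs2, an adaptor of the actin cytoskeleton, fell by 1.19 on the log2 scale (adjusted p = 0.0196), and Mybpc1, the slow-muscle form of myosin-binding protein C, by 1.32 (adjusted p = 0.0274), with 3 probe sets past the threshold. Cd83, a surface protein of the immunoglobulin superfamily, fell by 1.19 (adjusted p = 0.0289), Grik1, a kainate receptor subunit, by 1.17 (adjusted p = 0.0219), and Sbspon, an extracellular matrix protein, by 1.16 (adjusted p = 0.0274). All of these but Grik1 were separated in each stratum. Fhod3, a formin that assembles actin, fell by 1.03 (adjusted p = 0.0166) and was about as low in testis (-0.97) as in ovary (-1.08). Ptger4, a receptor of prostaglandin E2, fell by 0.67 (adjusted p = 0.0184), and Prss23, a serine protease, by 0.94 on 1 probe set and by 1.12 on a second.

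The largest rise among the called genes was that of Htr1b, the serotonin receptor 1B, which couples to inhibitory G proteins. In ovary it read 32.4 and 24.6 versus 128 and 81.4 at E12.5 and 35.5 and 19.2 versus 154 and 214 at E14.5. In testis it was 26.9 and 30.7 versus 139 and 302 at E12.5 and 45.1 and 90.0 versus 113 and 128 at E14.5. Every knock-out array was above the wild-type arrays of its stratum, and wild-type testis E14.5 was the highest wild-type group. The pooled rise was 3.92-fold (log2 change 1.97, SE 0.27, adjusted p = 0.00979), with 2.17 in ovary and 1.77 in testis. A second Htr1b probe set, at a mean intensity of 5.92, had a change of 0.17 (adjusted p = 0.424). Of 16 measured genes of serotonin receptors and handling, Htr1b was the single one to pass, where 0.115% of all genes passed as higher. The median of the list was 0.03.

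Tacr3, the receptor of neurokinin B, rose as much over all gonads (3.91-fold, log2 change 1.97, SE 0.35, adjusted p = 0.0289) but less evenly. Ovary arrays read 12.7 and 24.1 versus 206 and 126 at E12.5 and 9.47 and 52 versus 118 and 172 at E14.5, and testis arrays 25.3 and 28.7 versus 105 and 175 at E12.5. In testis E14.5 the genotypes overlapped, at 189 and 293 versus 345 and 259. Its call held without 7 of the 16 arrays in turn.

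Fmo2 and Gsta2, which encode enzymes of foreign-compound metabolism, both rose. Fmo2 is a flavin-containing monooxygenase. Fmo2 read 14.4 and 14 versus 48.4 and 35.7 in ovary E12.5 and 65.8 and 66.4 versus 341 and 349 in ovary E14.5. In testis Fmo2 read 11.4 and 11.8 versus 45.4 and 28 at E12.5 and 30.2 and 98.2 versus 165 and 103 at E14.5 (log2 change 1.54, SE 0.22, adjusted p = 0.0104). Knock-out ovary E14.5 had the highest level, and a second Fmo2 probe set passed at 1.32. Gsta2, a glutathione S-transferase of a family with near-identical members that a probe set may not tell apart, rose by 1.07 (adjusted p = 0.0363), from 242 and 181 to 615 and 336 in testis E14.5, where it was brightest.

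Lefty1 and Lefty2, secreted inhibitors of Nodal signalling, both rose. Lefty1 read 12.8 and 12.8 versus 53 and 40.3 in ovary E12.5 and 11.8 and 14.1 versus 88.1 and 51.5 in ovary E14.5. In testis Lefty1 read 33 and 28.2 versus 77.6 and 111 at E12.5 and 23.7 and 32.7 versus 30.1 and 65.4 at E14.5 (2.71-fold, log2 change 1.44, SE 0.21, adjusted p = 0.0115). Lefty2 read 45.2 and 29.4 versus 117 and 158 in ovary E12.5 and 16 and 22.5 versus 83.2 and 57.1 in ovary E14.5. In testis Lefty2 read 129 and 166 versus 239 and 326 at E12.5 and 99.4 and 108 versus 105 and 136 at E14.5 (log2 change 1.14, SE 0.21, adjusted p = 0.0363). Knock-out ovary lay above wild-type ovary at both stages. In testis E14.5 the genotypes overlapped for both genes. The Lefty2 call held without 5 of the 16 arrays in turn. They were the 2 genes past the threshold among 10 of the list for male germ cell differentiation, which had a median of 0.21, where 0.115% of all genes passed as higher. Nodal itself had 0.41 (adjusted p = 0.362).

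Cxcl12, Thbd, Colec11, Plbd1 and Nppc rose as well. Cxcl12, the chemokine that guides germ cells to the gonad, was bright and separated in each stratum. Cxcl12 read 1331 and 1081 versus 2113 and 1936 in ovary E12.5 and 1432 and 1787 versus 2074 and 2473 in ovary E14.5. In testis Cxcl12 read 1307 and 1228 versus 1542 and 1798 at E12.5 and 1975 and 2028 versus 2867 and 2329 at E14.5 (1.42-fold, log2 change 0.50, SE 0.085, adjusted p = 0.0239). A second bright Cxcl12 probe set also had 0.50 but did not pass (adjusted p = 0.168). Its change was 0.84 in ovary and 0.16 in testis. The genotypes overlapped for that probe set in testis E12.5, at 1579 and 1551 versus 1427 and 2011. Thbd, the thrombomodulin of endothelium, rose by 1.52 (adjusted p = 0.0396), from 77 and 83.1 to 496 and 377 in ovary E12.5, but overlapped in testis E14.5. It was the single gene of 16 of the endothelial list to pass, where 0.115% of all genes passed as higher, and the median of that list was 0.12. Colec11, a soluble lectin, rose by 1.13 (adjusted p = 0.0333) and Plbd1, a phospholipase-like protein, by 1.44 (adjusted p = 0.047). Nppc, the precursor of C-type natriuretic peptide, rose by 0.57 (adjusted p = 0.0104) at intensities no higher than 13.4.

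Among risen regulators, Tcf23, a basic helix-loop-helix protein, had 1.05 in ovary and 1.12 in testis (pooled log2 change 1.09, SE 0.16, adjusted p = 0.0122). It read 14.1 to 57.3 in the 8 wild-type arrays (median 22.5) and 42.9 to 82.8 in the 8 knock-out arrays (median 53.9), without overlap in any stratum. Cebpd encodes a leucine-zipper factor. Cebpd read 169 and 219.6 versus 469.7 and 375 in ovary E12.5 and 88.9 and 100.1 versus 160.5 and 155 in ovary E14.5. In testis Cebpd read 193 and 189.5 versus 385 and 430.4 at E12.5 and 112 and 117 versus 153 and 152 at E14.5 (log2 change 0.83, SE 0.12, adjusted p = 0.0104), with larger changes at E12.5. Pknox2, a homeobox gene, rose by 0.84 (adjusted p = 0.0164) and Zfpm2, a cofactor of GATA factors needed in the early gonad, by 0.51 (adjusted p = 0.0493). Zfpm2 had only 0.07 in testis E14.5, and its call held without 3 of the 16 arrays in turn. Myl7, the atrial regulatory myosin light chain, rose by 1.01 (adjusted p = 0.0166) and Plac1, a gene of the placenta, by 0.93 (adjusted p = 0.0363).

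**Figure D3:**
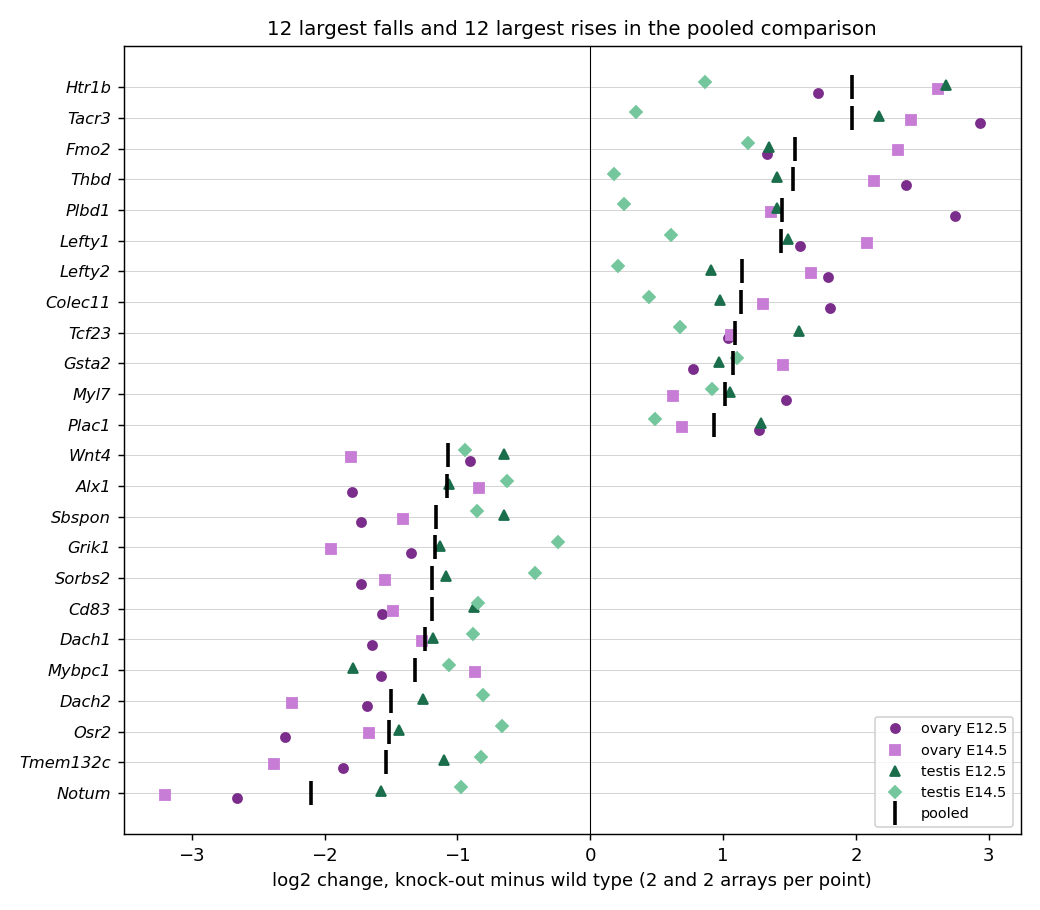
Log2 change, knock-out minus wild type, of the 12 largest rises and 12 largest falls in each stratum (circles ovary E12.5, squares ovary E14.5, triangles testis E12.5, diamonds testis E14.5; each from 2 and 2 arrays) and pooled (black bars). All points of a gene lie on one side of 0, and for most genes the diamond of testis E14.5 is nearest to 0, for example 0.18 for Thbd and -0.24 for Grik1.

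Sizes varied among strata. The median fold of the 73 probe sets was 2.06 in ovary E12.5, 2.09 in ovary E14.5, 1.89 in testis E12.5 and 1.43 in testis E14.5. Testis E14.5 had the smallest change of the 4 strata in 50 of the 73 and the largest in 3. Risen probe sets had a median fold of 1.36 there, against 2.1 to 2.16 in the other 3 strata, and fallen ones 1.53. Ovary had the larger change in 64 of the 73, with a median absolute log2 change of 1.07 against 0.75 in testis. These probe sets were chosen on the pooled change, so their sizes are a description. The difference between the gonad types passed in 0 of the 34945 probe sets by limma and 1358 had an unadjusted p under 0.05 (3.89%), of which 17 are among the 73. The difference between stages also passed in 0, with 1966 at an unadjusted p under 0.05 (5.63%). In testis E14.5, 1 wild-type and 1 knock-out array held 22.7% and 16.4% of opposite-sex RNA, whose part in the smaller change was not tested.

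Fitted apart, with 4 arrays against 4 and no array in common, the gonad types gave few calls. In ovary 2 probe sets passed (0.00572%), those of Notum (-2.93) and of Tnfrsf19, a receptor of the tumour necrosis factor family (-2.19), both lower, with 1381 at an unadjusted p under 0.05 (3.95%). In testis none passed by limma, with 3238 at an unadjusted p under 0.05 (9.27%). The 2 near-identical wild-type testis E12.5 arrays (SD of their log2 difference 0.156) lower the spread in this fit. The unadjusted counts of the 2 gonad types are therefore not like for like. A change in both, by the larger of the 2 p-values with 1 sign, passed in 0, with 289 at an unadjusted value under 0.05 (0.827%). No gene was thus shown to change in each gonad type on its own, and the pooled calls concern the mean over strata. Of 108 probe sets with an ovary p under 0.001, 97 had the same sign in testis (89.8%), 36 of 41 that were higher and 61 of 67 that were lower. Of 52 chosen in the same way in testis, 48 had the same sign in ovary (92.3%), against 57.9% of all probe sets. The share was lower at weaker thresholds. At a p under 0.01 it was 81.5% for 406 probe sets of ovary and 73.7% for 691 of testis, and at a p under 0.05 it was 71% of 1381 and 68.8% of 3238. Across all 34945 probe sets the ovary and testis changes had a Pearson r of 0.335, a description over probe sets that share arrays. Between stages r was 0.162.

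**Figure D4:**
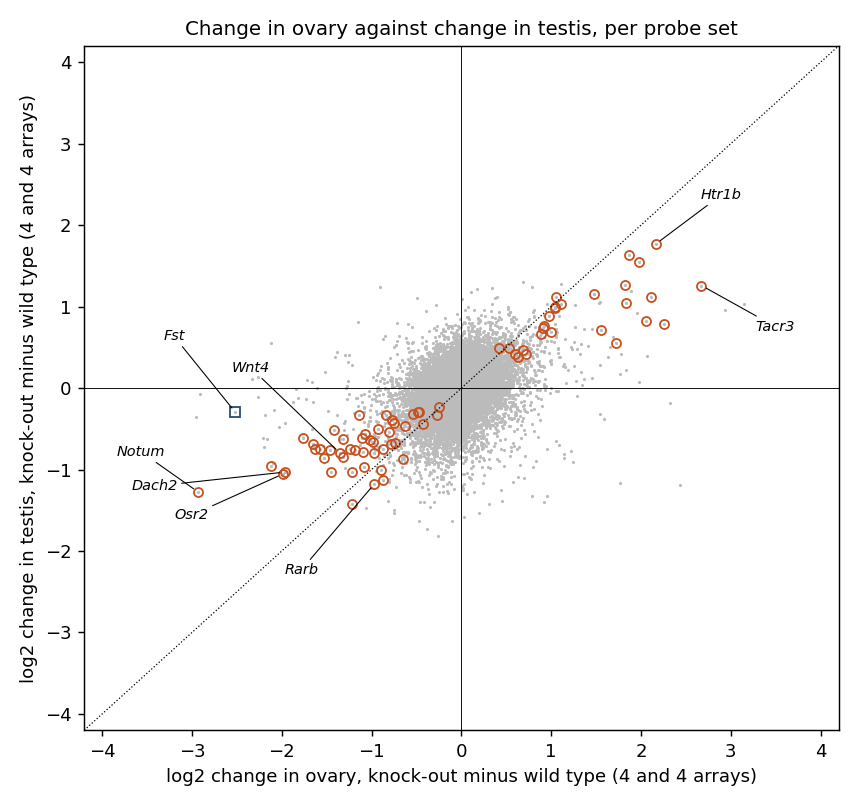
Log2 change in testis (vertical) against log2 change in ovary (horizontal), each knock-out minus wild type from 4 and 4 arrays, for 34945 probe sets (grey), with the 73 past the pooled threshold ringed and the line of equal change dotted. The rings lie at lower left and upper right, mostly on the side of the larger change in ovary, and the square marks Fst, with -2.52 in ovary and -0.30 in testis.

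Pre-granulosa genes had a lower median in ovary than in testis. Of 19 measured, 1 passed in the pooled comparison (Runx1), where 0.187% of all genes passed as lower. At an unadjusted p under 0.05, 10 were lower and 1 higher, against 2.49% and 6.34% of all genes. The median was -0.38, with -0.89 in ovary and 0.01 in testis, a difference not tested for the list. Fst, Msx1, Lgr5 and Lef1 are also on the feedback list. Fst, which encodes the activin antagonist follistatin, had -1.41 pooled (adjusted p = 0.251), from -2.52 in ovary and -0.30 in testis. Kitl encodes the ligand of the germ cell receptor KIT. Kitl read 2375 and 2217 versus 1329 and 1124 in ovary E12.5 and 3189 and 2493 versus 1492 and 1595 in ovary E14.5. In testis Kitl read 1357 and 1303 versus 1641 and 1823 at E12.5 and 1145 and 1556 versus 1028 and 1427 at E14.5. Its difference between gonad types had an unadjusted p of 0.000184 and an adjusted p of 0.601. Actc1, cardiac actin, had 2.43 in ovary and -1.19 in testis. The other genes chosen for opposite signs were Lzts1 (-1.30 and 0.41), Cfap161 (-1.26 and 0.32), Prcd (-1.22 and 0.29) and Myl1 (2.32 and -0.18), in ovary and testis, and none passed the test of that difference.

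Markers of other cell types that a dissected gonad can hold were read beside these changes, by the brightest probe set of each gene. Over all genes, 6.34% were higher and 2.49% lower at an unadjusted p under 0.05, and 0.302% passed. None of 20 Sertoli genes passed (median -0.02, -0.32 in ovary and 0.17 in testis). None of 8 genes of fetal Leydig cells and steroidogenesis passed, with 4 higher at an unadjusted p under 0.05 and a median of 0.54. Their summed signal was 1453 to 13838 in wild-type and 2059 to 18574 in knock-out arrays. Star, the cholesterol carrier of that list, had 1.32 (adjusted p = 0.34) and ranged from 5.83 to 568 in the 8 wild-type arrays (median 49.9) and 70.3 to 1072 in the 8 knock-out arrays (median 168). None of 7 adrenal genes passed (median 0.26, 3 higher at an unadjusted p under 0.05, summed signal 70.8 to 200.4 in wild-type and 83.6 to 449 in knock-out arrays), nor any of 15 interstitial genes (median 0.21, with 6 higher at an unadjusted p under 0.05). Of the adrenal genes, Mc2r, the receptor of adrenocorticotropic hormone, had 0.61 (adjusted p = 0.424) and the steroid hydroxylase gene Cyp11b1 0.88 (adjusted p = 0.333). Germ cells had a median of 0.41 over 15 genes, with 0.12 in ovary and 0.60 in testis. None passed, with 3 higher and 0 lower at an unadjusted p under 0.05. Summed germ cell signal was 4006 to 16629 in wild-type and 4064 to 17486 in knock-out arrays. Within testis E12.5 (4005.7 to 4220.5 versus 7670.9 to 8247.1) and ovary E14.5 (10779 to 11259 versus 13525 to 14998.5), knock-out lay above wild type without overlap. In ovary E12.5 and testis E14.5 the genotypes overlapped. Striated muscle had a median of 0.43, from 0.83 in ovary and -0.02 in testis, and 7 of its 16 genes were higher and 0 lower at an unadjusted p under 0.05, among them Tnnc1 and Myh3. None passed on its brightest probe set, but Tnnt2, the cardiac form of troponin T, passed on a dimmer one (log2 change 0.51, adjusted p = 0.0289). The brighter Tnnt2 probe set had 0.86 (adjusted p = 0.0806), and both were separated in all 4 strata. Summed muscle signal was 232 to 569.7 in wild-type and 261 to 1714 in knock-out arrays, with the muscle factor Myod1 at a mean intensity of 3.38. Chromaffin and sympathetic genes had 0.54 in ovary and -0.77 in testis, with no call among 15, and summed to 495 to 3253 in wild-type and 355 to 7364 in knock-out arrays.

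Genes of adjacent tissues were also read. Summed signal of 11 exocrine pancreas genes was 167 to 377 in wild-type and 358 to 942 in knock-out arrays. Knock-out sums lay above wild type in each of the 4 strata without overlap. A sum is carried mostly by the brightest genes. The median log2 change of the 11 was 0.07, with 0.13 in ovary and 0.07 in testis, against 0.03 over all genes. In ovary the sums were 344 to 377 versus 569 to 782 at E12.5 and 167 to 201 versus 696 to 942 at E14.5 (wild type versus knock-out). In testis they were 273.5 to 314 versus 416 to 692 at E12.5 and 220 to 340 versus 358 to 455 at E14.5. None passed, and 4 of the 11 were higher and 0 lower at an unadjusted p under 0.05, against 6.34% and 2.49% of all genes. Cpa1, a pancreatic carboxypeptidase, had 1.44 (adjusted p = 0.0922), and Cela3b, an elastase, 1.23 (adjusted p = 0.103), while the pancreatic factors Ptf1a and Pdx1 had mean intensities of 4.22 and 5.96. Mesonephros and duct genes summed to 1233 to 3367 in wild-type and 803 to 2474 in knock-out arrays, and 5 of 14 were lower at an unadjusted p under 0.05, against 2.49% of all genes, with none past the threshold. Pax8, a duct factor, had -0.53 (adjusted p = 0.065) and Hoxa10 -0.78 (adjusted p = 0.324). The part of such tissue, of germ cell share and of 3'/5' ratio in the 73 calls was not tested.

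The remaining lists had medians near that of all genes. These were 0.07 for 16 macrophage, 0.09 for 11 erythroid, 0.05 for 15 proliferation, 0.01 for 11 p53 target, 0.07 for 17 immediate early and heat shock, 0.11 for 16 meiosis, 0.06 for 13 surface epithelium, 0.05 for 18 cartilage and tendon and -0.06 for 12 arterial genes. None of their members passed. A median near that of all genes can hide changes both ways. At an unadjusted p under 0.05, 3 of 13 surface epithelium genes were higher and 3 lower, against 6.34% and 2.49% of all genes. Cartilage and tendon had 3 higher and 2 lower of 18, and arterial genes 2 and 2 of 12. Each other list here had at most 2 higher and 1 lower. Genes beside Wnt4 on chromosome 4 were read because sequence linked to a targeted locus can differ between genotypes. Of the 50 tested genes nearest to Wnt4, 25 on each side, 0 passed in limma, where 0.302% of all genes passed. At that share, 0 among 50 genes carries little information. At an unadjusted p under 0.05, 3 of the 50 were higher and 3 lower, against 6.34% and 2.49% of all genes, and their median was 0.02. The largest change among the 50 was that of Cela3b, the elastase gene given above with the pancreas list, which is second from Wnt4 among the tested genes on one side, with log2 changes of 2.72 in ovary E12.5, 1.41 in ovary E14.5, 0.42 in testis E12.5 and 0.38 in testis E14.5. Among all 1094 tested genes of that chromosome other than Wnt4, none passed, against 0.302% of all genes.

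At the edge of the threshold, Mybpc1 (its dimmest probe set, adjusted p = 0.0484), Zfpm2 (0.0493) and Runx1 (0.0499) were the last inside. A dim probe set of Ggt5 (0.0545), the second probe set of Wnt4 (0.0581) and Sstr4 (0.0581) were the first outside. Of the 65 genes with a called probe set, 46 had several probe sets. All of them had 1 sign in 39 genes and some differed in 7, and 10 genes were called only on a dimmer probe set. One of those 10 was Cbln1, a secreted synapse organiser, which passed at 1.75 on that probe set and had 1.95 and 2.09 on the brighter ones (adjusted p = 0.123 and 0.137).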

How the data were processed

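RNA of embryonic mouse gonad was hybridised to 16 Affymetrix Mouse430_2 arrays. The authors deposited linear intensities per probe set, made with MAS5 per the submitters' processing notes, whose version and scaling target were not stated. That scale was kept, and log2(intensity + 4) was computed from it. Gene symbols came from the platform annotation, updated through Entrez numbers for 34741 of 34945 probe sets with 1 symbol. Probe sets with several symbols (932) or none (9160) and 64 controls were not named. A gene stands for its probe set of highest mean.

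limma 3.58.1 (R 4.3.3) was fitted with stratum plus genotype and variances that follow intensity (11 residual and 5.19 prior degrees of freedom), two-sided, with Benjamini-Hochberg adjustment over all 34945. Ovary and testis were also fitted apart with stage as covariate. Differences between gonad types and between stages were interaction terms. On simulated data for 34945 probe sets, the pooled fit recovered 83 of 100 changed 2-fold and 98 of 100 changed 4-fold, with 6 unchanged called. The ovary fit recovered 40 and 89, the testis fit 33 and 84, and the rule of a change in both 25 and 79. Changed probe sets were drawn only from those above the median intensity, with an equal change in all 4 strata. Noise was independent between arrays. These rates therefore do not cover dim probe sets, changes that differ among strata, or deviations shared across an array.

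Opposite-sex RNA was read from Xist in testis and from Eif2s3y, Kdm5d and Uty in ovary. Named genes were Wnt4 and Htr1b, the 12 largest rises and 12 largest falls past the threshold with 1 sign in all strata and a mean above the median of probe sets (18.3), for each list at most 4 members of lowest p, and 6 genes of opposite sign in ovary and testis. Other called genes and list members, among them Rarb, Esr1, Igfbp2, Cebpd, Nppc, Lemd1, Cxcl12, Zfpm2, Axin2, Fst and Cbln1, and Tnfrsf19 were named after their values were seen. The comparison, its members and the gene lists were chosen with earlier results of these data known. Promoter windows are 250 bases before RefSeq starts (GRCm38.p6). Figures were drawn in Python 3.11.15.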

Additional observations from a re-analysis of the deposited data

Results flagged for a closer look

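Among the 55 genes past the threshold, the 8 knock-out arrays were compared with the wild-type mean of their own gonad and stage, and 2 genes had 1 array far from the other 7. For Apcdd1, knock-out testis E14.5 replicate 2 stood at 0.23 on the log2 scale while the next highest array was at -0.82 and the lowest at -1.59. For Hpgd, which encodes the enzyme that inactivates prostaglandins, the same array stood at -0.06, with the next lowest at 0.48 and the highest at 0.79. That array also held 16.4% of opposite-sex RNA. Chance marks about 1 in 20 groups, and 2 of 55 genes were marked here.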

How the results depend on the processing

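Calls depended on the processing. The 73 probe sets of the pooled comparison kept their sign in every alternative that tested them, which their choice on these same arrays favours. Their count was 35 at a pseudocount of 32, 112 with 1 probe set per gene tested (55 shared), 118 with a mean per group in place of the additive model, 24 with the wild-type testis E12.5 arrays averaged, 0 without the arrays of ovary E12.5, of ovary E14.5 or of testis E12.5 (limma, lowest adjusted p 0.0634, 0.0546 and 0.11), and 17 to 108 without 1 array in turn. The remaining planned settings (pseudocount 1, filter on dim probe sets, quantile normalization, no intensity trend, array weights, covariates) gave 51 to 86. In ovary alone the count of 2 became 0 at a pseudocount of 32 and with no intensity trend, 1 with quantile normalization, 27 with array weights, 41 with 1 probe set per gene, 5 with the opposite-sex covariate, 20 with the 3'/5' covariate and 0 to 6 without 1 array in turn. Testis alone and the change in both gonad types gave 0 in each alternative run. The difference between gonad types gave 1 at a pseudocount of 32, 3 with array weights, 4 with the opposite-sex covariate and 0 to 4 without 1 array, and the difference between stages 0 to 1 without 1 array. After the data had been seen, arrays of high 3'/5' ratio or of over 10% opposite-sex RNA were left out. The first omission gave 18 pooled calls, 0 in ovary and 7 for the difference between stages, and the second 43, 10 in ovary and 1 for the difference between gonad types. The cause was not tested in any of these.

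Arrays of the same replicate number shared their deviations in testis E14.5 (correlation 0.634), where both replicate 2 arrays held opposite-sex RNA, and ran against each other in ovary E12.5 (-0.728). The correlation was -0.0282 in testis E12.5 and -0.109 in ovary E14.5. As these differed among strata, the numbers were not taken to pair samples. With the number as a replicate block, 1 of the 73 probe sets passed in the pooled comparison, that of Prss23, with 2352 at an unadjusted p under 0.05, and 0 in ovary. All 24 genes of largest change lost their call, and all 73 probe sets kept their sign and an unadjusted p under 0.05. Limits are the 2 arrays per group, unknown MAS5 scaling, and dim probe sets: the median intensity of the called was 97 against 18.3 over all.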

Other observations

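Probe sets without a single gene symbol were left out of the comparison. When all 45037 non-control probe sets were fitted together, 70 passed, and 8 of these lay among the 10092 without a single symbol, 6 higher and 2 lower in knock-out.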
